A study of Mus musculus with 4 samples.

Results

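The mucus genes of goblet cells were followed through 4 RNA-seq libraries of mouse colon. The set was defined by gene symbol and holds Muc2, Zg16, Retnlb, Fcgbp, Tff3, Agr2, Spdef and Ang4, which are 8 of the 44788 gene rows of the count table. All 4 libraries came from colon tissue of mice on a C57BL/6 background. The 4 groups, with 1 library each, were wild-type (WT) mice without treatment at day 0, mice labelled Card9-/- without treatment at day 0, WT mice after AOM/DSS at day 100 and mice labelled Card9-/- after AOM/DSS at day 100. AOM/DSS combines azoxymethane (AOM), which mutates DNA, with dextran sulfate sodium (DSS), which injures the colon lining, and is used to produce colon tumours in inflamed tissue. The treated mice got 10 mg/kg AOM by injection on day 1 and, from 5 days later, 2% DSS in their water for 7 days, in 3 cycles. Treatment and day of collection therefore coincide. The sources used here do not give the age of the mice, how the Card9 allele was made, or whether a library was 1 animal or a pool. Since each group has 1 library, differences could not be checked against replicates, and the intervals given cover counting error only.

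Goblet cells are the mucus-secreting cells of the colon lining. They fill their granules with Muc2, a very large gel-forming mucin that is folded in the endoplasmic reticulum, glycosylated in the Golgi and released to form the layer that keeps bacteria away from the epithelium. Other goblet cell products are cross-linked into that gel, bind or kill bacteria in it, or support repair of the surface, and the cell's secretory programme is set by transcription factors such as Atoh1 and Spdef.

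The libraries held 23022885 to 27706567 counts, and all 8 genes were counted in each. Card9, an adaptor of myeloid cells for fungal-sensing receptors, had 44 counts in the untreated WT library, 69 in the untreated library labelled Card9-/-, 116 after AOM/DSS in WT and 245 after AOM/DSS in the library labelled Card9-/-. These counts go against the label, and whether they lie in the deleted part was not analysed here, so both libraries are called labelled Card9-/- throughout. The AOM/DSS library labelled Card9-/- stood apart from the other 3: its 10 most abundant genes took 6.52% of its counts, against 13.5 to 14.3% elsewhere, and the ribosomal RNA row Rn18s-rs5 took 2.86%, against 5.20 to 7.11%. Each result that rests on that library is given beside the pairs that do not use it. All 15 genes of a list of general epithelial markers and all 15 of a colonocyte list were counted in every library.

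The 8 genes lie on 5 chromosomes of the mouse genome (GRCm38, RefSeq positions). Muc2 spans positions 141690340 to 141754691 of chromosome 7, where Fcgbp (28071236 to 28120864) and Zg16 (127050156 to 127052675) also lie. Agr2 lies on chromosome 12 (35992925 to 36004081), Ang4 on chromosome 14 (51763892 to 51773590) and Retnlb on chromosome 16 (48816856 to 48818892). Spdef (27714446 to 27731003) and Tff3 (31125306 to 31129611) share chromosome 17. The 250 bases before the start were available for 5 of the 8, all from the RefSeq promoter table of GRCm38.p6. Promoters of 4 genes that the values below turn on are printed 5' to 3' on the gene's strand. Muc2 was taken as the most abundant member, and Agr2 and Spdef as the pair with the closest profiles. Ang4 was taken as the only member higher in both libraries labelled Card9-/- than in both WT libraries. Capitals mark a match to any of 5 short motifs.
Muc2: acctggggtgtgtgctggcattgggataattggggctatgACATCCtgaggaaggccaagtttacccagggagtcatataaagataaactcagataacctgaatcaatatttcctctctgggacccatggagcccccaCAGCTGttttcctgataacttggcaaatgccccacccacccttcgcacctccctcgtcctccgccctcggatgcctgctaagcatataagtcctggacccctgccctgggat
Agr2: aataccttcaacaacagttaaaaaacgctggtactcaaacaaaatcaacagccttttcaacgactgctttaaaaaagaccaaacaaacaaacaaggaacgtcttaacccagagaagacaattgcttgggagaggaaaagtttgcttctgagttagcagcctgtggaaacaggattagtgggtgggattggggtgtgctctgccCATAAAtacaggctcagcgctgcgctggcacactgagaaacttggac
Spdef: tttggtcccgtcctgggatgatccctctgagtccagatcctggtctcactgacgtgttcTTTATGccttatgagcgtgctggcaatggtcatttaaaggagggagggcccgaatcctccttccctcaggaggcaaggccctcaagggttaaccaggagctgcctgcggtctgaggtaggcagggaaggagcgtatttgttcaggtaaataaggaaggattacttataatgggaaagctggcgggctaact
Ang4: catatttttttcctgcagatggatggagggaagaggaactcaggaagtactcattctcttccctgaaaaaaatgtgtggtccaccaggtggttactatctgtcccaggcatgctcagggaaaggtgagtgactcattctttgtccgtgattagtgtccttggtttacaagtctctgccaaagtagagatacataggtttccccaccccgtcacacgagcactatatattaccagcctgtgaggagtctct
These windows are chr7:141690090-141690339 for Muc2 and chr12:35992675-35992924 for Agr2, both on the plus strand, and chr17:27728952-27729201 for Spdef and chr14:51773591-51773840 for Ang4, both on the minus strand. The Spdef window lies inside the RefSeq span of that gene. The motifs, searched on both strands, were CAGCTG (an E-box of the Atoh1 type), TGTTTAC (forkhead type), TTC and GAA around any 4 bases (Stat6 type), GGATGT (an ETS motif of the Spdef type) and TTTATG (Cdx type), and none of the matches overlapped. Muc2 held CAGCTG at 112 to 107 bases before its start and ACATCC, the reverse complement of GGATGT, at 210 to 205 bases before it. Agr2 held CATAAA, the reverse complement of TTTATG, at 47 to 42 bases before its start, and Spdef held TTTATG at 191 to 186 bases. Fcgbp, not printed, held CAGCTG at 208 to 203 bases before its start, and Ang4 held none of the 5. Among all 32851 promoter windows of the same length, 13.0% held CAGCTG, 9.46% GGATGT, 10.8% TTTATG, 5.85% the Stat6 type and 3.17% TGTTTAC. These matches describe letters in a window and say nothing of binding.

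Together the 8 genes made up 1.69% of all counts in the untreated WT library (exact Clopper-Pearson 95% interval 1.69 to 1.70), 1.50% in the untreated library labelled Card9-/- (1.49 to 1.50), 1.40% after AOM/DSS in WT and 0.216% after AOM/DSS in the library labelled Card9-/- (0.214 to 0.218). The first 3 libraries thus lay close together and the last one far below. In bulk tissue, fewer goblet cells and less RNA per goblet cell cannot be told apart. The similar sums hid different compositions: Muc2 made up 78.3% of the members' counts in untreated WT, 46.3% in the untreated library labelled Card9-/-, 58.6% in WT after AOM/DSS and 48.0% in the AOM/DSS library labelled Card9-/-. Without Muc2, the other 7 genes summed to 3701, 8619, 6134 and 982 CPM (counts scaled to library size with edgeR's TMM factors) in the same order of libraries.

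**Figure D1:**
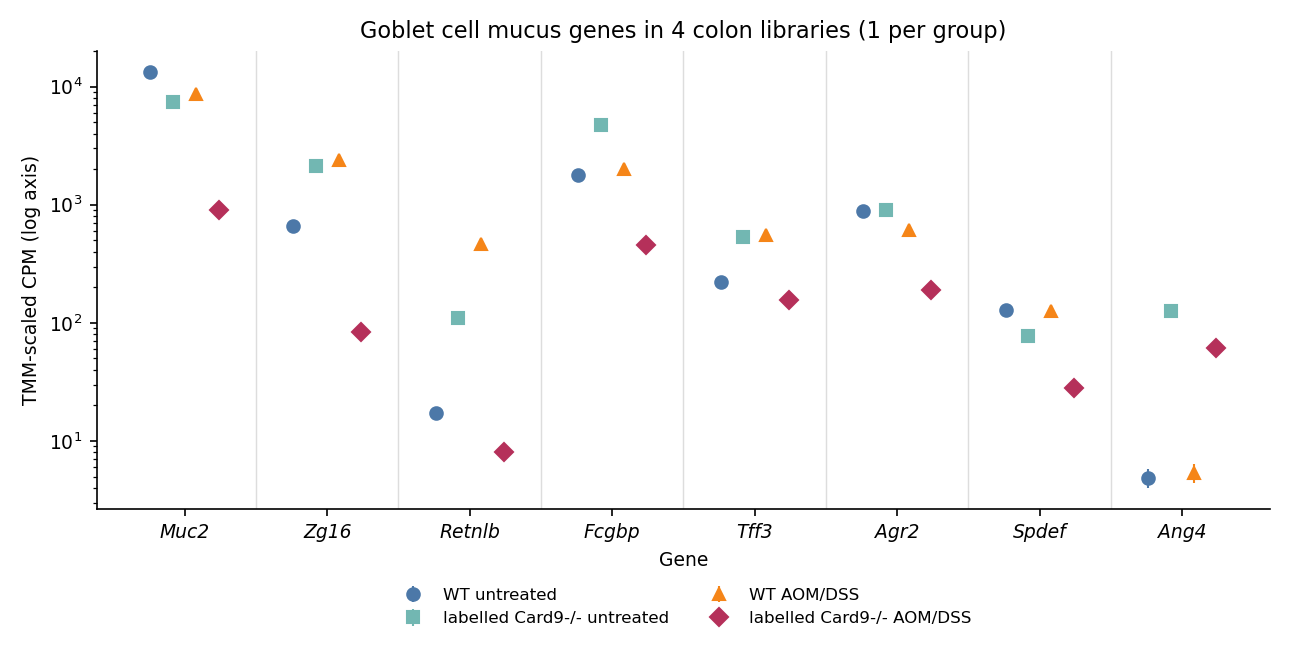
TMM-scaled CPM (log axis) of each of the 8 goblet cell genes in the 4 libraries, with 1 library per group and bars for the 95% counting interval, mostly smaller than the points. The AOM/DSS library labelled Card9-/- is lowest for 7 genes, while Ang4 is low in both WT libraries (4.84 and 5.32 CPM) and high in both libraries labelled Card9-/- (127 and 61.8 CPM).

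In WT colon, the AOM/DSS library had more RNA of 3 of the 8 genes and at least 2-fold less of none. Retnlb was 26.9-fold, Zg16 3.62-fold and Tff3 2.47-fold higher, while Muc2, Agr2, Fcgbp, Spdef and Ang4 stayed within 2-fold. Genes were called higher or lower from a 2-fold difference on the log2(CPM + 1) scale, given a minimum of 50 counts in the library with more. Of all 15356 genes with 50 counts in this pair, 4.08% were higher and 3.88% lower by that rule. The members' median log2 ratio was 0.14, against 0.02 for all genes measured in the pair. General epithelial markers summed to 16348 CPM untreated and 20277 CPM after AOM/DSS, with 0 of 14 past 2-fold. Leukocyte genes summed to 270 and 460 CPM, with 5 of 12 higher. The 7 Paneth cell genes other than Ang4 summed to 51.5 and 583 CPM, of which Reg3g alone had 34.4 and 545 CPM. Of the 4 measured, 3 were higher, while Lyz1 had 13.7 and 15.8 CPM and Defa17 was at 0 in both. Adipocyte genes summed to 504 and 228 CPM, with 5 of 8 lower. Their part in the values of Retnlb, Zg16 and Tff3 was not tested.

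Between the libraries labelled Card9-/-, all 8 genes were lower after AOM/DSS. Zg16 was 25.4-fold, Retnlb 13.6-fold, Fcgbp 10.4-fold and Muc2 8.22-fold lower, and Ang4 had the smallest difference at 2.06-fold. In this pair 15.9% of the 15900 measured genes were called lower and 14.1% higher, and the members' median log2 ratio was -2.64, against 0.03 for all. Smooth muscle genes were also lower, 11 of 11 of them, with a summed 10238 CPM untreated and 1444 CPM after AOM/DSS, as were 14 of 15 colonocyte genes (12807 and 2128 CPM). General epithelial markers summed to 18759 and 12616 CPM. Proliferation and Wnt target genes summed to 464 and 2484 CPM, with 11 of 12 higher. The part of these other tissues and states in the mucus gene values was not tested.

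Without treatment, the library labelled Card9-/- exceeded the WT library in 5 of the 8 genes. Ang4 was 26.3-fold, Retnlb 6.40-fold, Zg16 3.24-fold, Fcgbp 2.67-fold and Tff3 2.39-fold higher, and Muc2, Spdef and Agr2 were within 2-fold. Of 15352 measured genes, 4.46% were higher and 3.37% lower, and the median log2 ratio was 1.33 for the members and -0.01 for all genes. General epithelial markers summed to 16348 CPM in WT and 18759 CPM in the library labelled Card9-/-, with 0 of 14 past 2-fold. Other tissue lists did differ. Leukocyte genes summed to 270 and 388 CPM, with 4 of 12 higher and 0 lower. Colonocyte genes summed to 18868 and 12807 CPM, with 5 of 15 higher and 3 lower. Smooth muscle genes summed to 9712 and 10238 CPM, with 2 of 11 higher. The part of these other genes in the mucus gene values was not tested.

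After AOM/DSS, the library labelled Card9-/- was lower than WT in 7 of the 8 genes and higher in Ang4. Retnlb was lowest relative to WT, with a log2 ratio of -5.67 (counting interval 50.4- to 64.8-fold lower). Zg16 was 28.4-fold and Muc2 9.58-fold lower, and Ang4 was 11.6-fold higher. By the same rule 12.4% of 15779 genes were lower and 11.9% higher, with a median of -2.13 for the members and 0.03 for all. Smooth muscle (7543 against 1444 CPM) and colonocyte genes (16484 against 2128 CPM) were lower in this pair as well. General epithelial markers summed to 20277 CPM in WT and 12616 CPM with the label, with 2 of 15 higher and 3 lower. Proliferation and Wnt target genes summed to 393 and 2484 CPM, with 12 of 12 higher. Of 7 Paneth cell genes other than Ang4, 6 were higher and 1 lower with the label. Leukocyte genes summed to 460 CPM in WT and 774 CPM in the library labelled Card9-/-, with 3 of 12 higher and 3 lower. The part of all these genes in the mucus gene values was not tested.

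**Figure D2:**
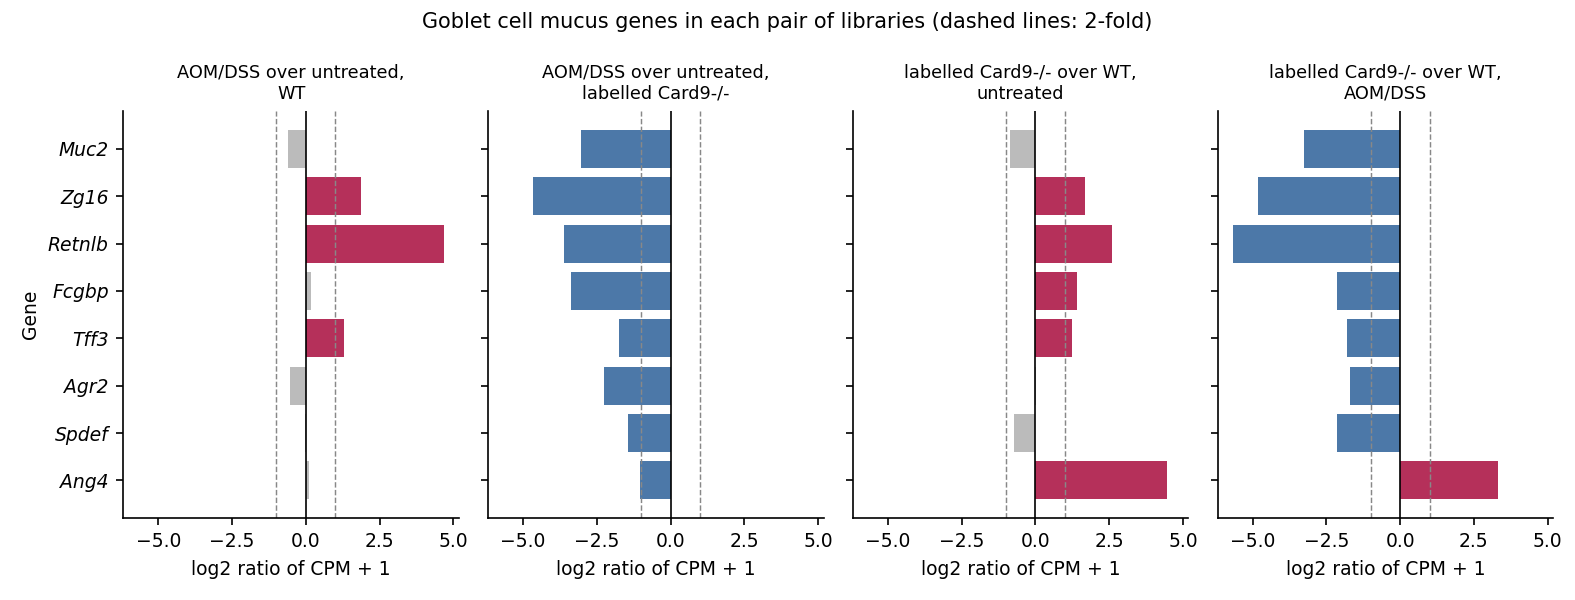
Log2 ratio of CPM + 1 for the 8 goblet cell genes in each of the 4 pairs of libraries, with bars past the dashed 2-fold lines in colour (red higher, blue lower) and others in grey. Only the untreated pair and the WT pair hold 3 or more red bars, and the pair labelled Card9-/- holds 8 blue ones.

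Muc2, the gel-forming mucin itself, had 336754 counts (13360 CPM) in untreated WT, 161641 (7440 CPM) in the untreated library labelled Card9-/-, 189180 (8674 CPM) in WT after AOM/DSS and 28681 (905 CPM) in the AOM/DSS library labelled Card9-/-. By count it was the gene ranked 3, 6, 5 and 58 of its library in that order. The first 3 libraries lay within 1.80-fold of each other and the last one below all of them. After AOM/DSS it was 1.54-fold lower in WT (95% counting interval 1.53 to 1.55) and 8.22-fold lower in the libraries labelled Card9-/- (8.12 to 8.32). Counted against the general epithelial markers of the same library, which sets aside the scaling between libraries, Muc2 had 817, 397, 428 and 71.8 counts per 1000 epithelial counts, so that the libraries labelled Card9-/- differed 5.53-fold on that measure.

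Fcgbp, a large protein that is bound to Muc2 in the mucus gel, had 44744 counts (1775 CPM), 102905 (4737 CPM), 43413 (1991 CPM) and 14392 (454 CPM), in the order untreated WT, untreated labelled Card9-/-, WT AOM/DSS and AOM/DSS labelled Card9-/-, which holds for all series of 4 values below. It was highest in the untreated library labelled Card9-/- and lowest in the last library. The WT pair differed 1.12-fold and the pair labelled Card9-/- 10.4-fold (10.2 to 10.6). Relative to the epithelial markers the WT ratio turned to 1.11-fold lower, so that no direction can be given for Fcgbp in WT.

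Zg16 is a lectin-like protein that binds Gram-positive bacteria in the mucus. It had 16596 counts (658 CPM), 46292 (2131 CPM), 51980 (2383 CPM) and 2659 (83.9 CPM). The untreated library labelled Card9-/- and the WT AOM/DSS library were both high and near each other, and the last library was lowest. AOM/DSS went with 3.62-fold more Zg16 in WT (3.56 to 3.68) and 25.4-fold less in the libraries labelled Card9-/- (24.4 to 26.4). Its rank by count ran from 24 in the untreated library labelled Card9-/- to 2474 after AOM/DSS. The genes Gm44939 and Gm22747, on the opposite strand, overlap Zg16 in the GENCODE annotation, and the strand setting of the counting is not given in the sources used here.

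Retnlb encodes resistin-like molecule beta, a secreted protein that kills bacteria and is induced by type 2 cytokines. It had 434 counts (17.2 CPM), 2394 (110 CPM), 10085 (462 CPM) and 257 (8.11 CPM). WT after AOM/DSS was the highest library by a wide margin, and the AOM/DSS library labelled Card9-/- the lowest. The 26.9-fold difference in WT (24.4 to 29.6) placed Retnlb at rank 13 of 15356 genes from the highest ratio down. The libraries labelled Card9-/- ran the other way, with 13.6-fold less Retnlb after AOM/DSS (11.9 to 15.5). Among its relatives, Retnlg, a neutrophil form, had 23, 15, 571 and 546 counts and was high in both AOM/DSS libraries, while Retnla had 174, 66, 2 and 1 counts and was low in both. Neither followed Retnlb across the 4 libraries.

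Ang4, a ribonuclease of the angiogenin family with antibacterial action, is made by Paneth cells of the small intestine and by secretory cells of the mouse colon. It had 122 counts (4.84 CPM) in untreated WT and 116 (5.32 CPM) in WT after AOM/DSS, but 2763 (127 CPM) and 1959 (61.8 CPM) in the untreated and AOM/DSS libraries labelled Card9-/-. The 2 WT libraries did not differ beyond counting error (1.10-fold, 0.845 to 1.43). Ang4 was 26.3-fold higher with the label in untreated colon (21.9 to 31.8), at rank 17 of 15352, and 11.6-fold higher after AOM/DSS (9.64 to 14.1). Its 2.06-fold difference between the libraries labelled Card9-/- (1.94 to 2.18) was under 2-fold with 3 of 4 other scalings: the log2 ratio of -1.03 became -0.96 with DESeq2 size factors, -0.74 with library totals alone and -0.46 with scaling on epithelial markers, and -1.08 with upper-quartile factors. Its paralogs Ang2 and Ang6 were at 0 in 3 of the 4 and in all libraries, and Ang, the most abundant of them, had 787, 424, 320 and 139 counts. How the counting divided reads between such copies is not given in the sources used here, so values of single members are uncertain.

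Tff3, a trefoil peptide of the mucus that supports repair of the epithelium, had 5616 counts (223 CPM), 11561 (532 CPM), 12024 (551 CPM) and 4948 (156 CPM). The middle 2 libraries were about equal and above the others. It was 2.47-fold higher after AOM/DSS in WT (2.40 to 2.55) and 3.41-fold lower in the libraries labelled Card9-/- (3.30 to 3.52). Scaled on epithelial markers, the WT log2 ratio of 1.30 became 0.99, just under 2-fold.

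Agr2, a disulfide isomerase of the endoplasmic reticulum that is needed to make Muc2, had 22520 counts (893 CPM), 19654 (905 CPM), 13421 (615 CPM) and 6007 (190 CPM). The untreated libraries differed 1.01-fold, within counting error, and both AOM/DSS libraries were lower than their untreated partner, by 1.45-fold in WT (1.42 to 1.48) and 4.77-fold with the label (4.63 to 4.91). Spdef, an ETS transcription factor required for goblet and Paneth cell maturation, had 3264 counts (129 CPM), 1691 (77.8 CPM), 2735 (125 CPM) and 883 (27.9 CPM). The 2 WT libraries did not differ beyond counting error (1.03-fold, 0.981 to 1.09). In the libraries labelled Card9-/- Spdef was 2.79-fold lower after AOM/DSS (2.57 to 3.03), and its log2 ratio of -1.45 became -0.89 with scaling on epithelial markers. By CPM, Tff3, Spdef and Agr2 spanned the narrowest ranges over the 4 libraries, and Retnlb, Zg16 and Ang4 the widest.

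Levels can be compared between genes only per transcript length. As CPM per kilobase of exon, Muc2 led in untreated WT with 1875, followed by Agr2 with 1140 and Zg16 with 1035. Zg16 led in the untreated library labelled Card9-/- with 3350 and in WT after AOM/DSS with 3748. In the AOM/DSS library labelled Card9-/- the highest level per kilobase was that of Tff3 with 317, followed by Agr2 with 242. Ang4 was last in both WT libraries with 6.83 and 7.50, and Retnlb was last in the AOM/DSS library labelled Card9-/- with 11.7, where Ang4 stood at 87.2. Muc2 was measured over 7127 bases of annotated exon, and no GENCODE transcript of it is paired with a RefSeq one, so its place in these orders is uncertain. The lengths of Zg16 and Agr2 also depend on the transcripts counted: over the exons of all GENCODE transcripts, Zg16 stood at 524, 1695, 1896 and 66.8 CPM per kilobase, still first in the middle 2 libraries but in place 5 in the last one, and Agr2 at 692, 701, 477 and 147.

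Ratios to Muc2 within a library do not depend on the scaling between libraries. Per 100 Muc2 counts, Zg16 had 4.93 counts in untreated WT, 28.6 in the untreated library labelled Card9-/-, 27.5 in WT after AOM/DSS and 9.27 in the AOM/DSS library labelled Card9-/-. Fcgbp had 13.3, 63.7, 22.9 and 50.2 counts per 100 Muc2 counts, and was higher with the label in both pairs. Tff3 had 1.67, 7.15, 6.36 and 17.3, and Agr2 6.69, 12.2, 7.09 and 20.9. In the libraries labelled Card9-/-, Muc2 was therefore lower after AOM/DSS by a larger factor than Tff3, Agr2, Spdef and Ang4, and by a smaller one than Zg16, Retnlb and Fcgbp. Spdef stood at 0.969, 1.05, 1.45 and 3.08, so the factor and Muc2 kept nearly the same ratio in the untreated libraries. Ang4 ranged from 0.0362 per 100 Muc2 counts in untreated WT to 6.83 in the AOM/DSS library labelled Card9-/-, and Retnlb from 0.129 to 5.33 in the 2 WT libraries.

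**Figure D3:**
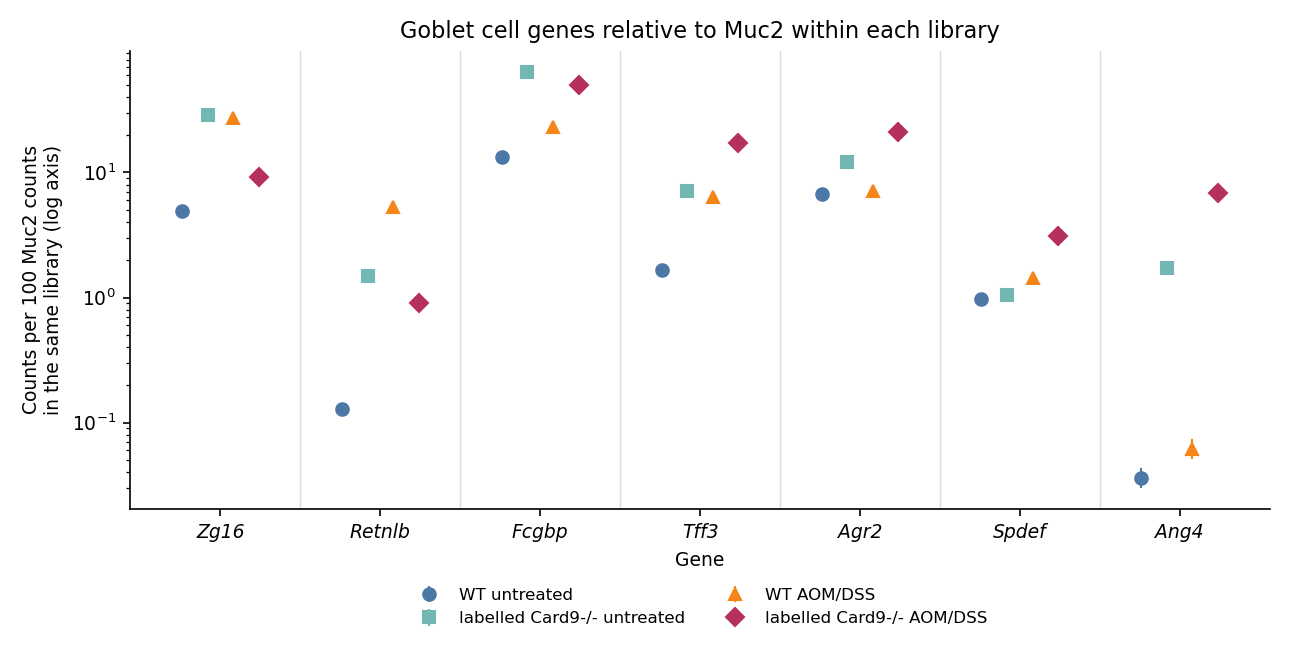
Counts of 7 goblet cell genes per 100 Muc2 counts of the same library (log axis), with 95% counting intervals that are mostly smaller than the points. Untreated WT is the lowest library for all 7 genes, and the AOM/DSS library labelled Card9-/- is the highest for Tff3, Agr2, Spdef and Ang4.

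The AOM/DSS responses of the 2 genotype labels differed in every member, by the log2 ratio in the libraries labelled Card9-/- minus that in WT. The difference was -8.28 for Retnlb (95% counting interval -8.51 to -8.05), -6.50 for Zg16, -3.54 for Fcgbp, -3.07 for Tff3, -2.41 for Muc2, -1.71 for Agr2, -1.40 for Spdef and -1.14 for Ang4 (-1.52 to -0.77). These intervals are centred on differences of log2 ratios of CPM + 1 but take their error from the raw counts, so they are approximate for low genes. For Retnlb, Zg16, Fcgbp and Tff3, 4 of the 8, the responses had opposite signs and both counting intervals excluded equal levels. That of Fcgbp in WT changes sign with the scaling, and the WT interval of Ang4, whose log2 ratios were 0.11 and -1.03, includes equal levels. Each of the 4 pairs shares a library with some of the others, though the WT pair and the pair labelled Card9-/- share none. All 8 differences rest on the AOM/DSS library labelled Card9-/-, so they are not independent of one another.

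An additive model of treatment and label over all 4 libraries (edgeR's quasi-likelihood test, 18973 genes, Benjamini-Hochberg adjustment) uses the interaction as its only error term, with 1 residual degree of freedom. It called 0 genes for treatment and 0 for the label at an adjusted p under 0.05, which is 0% of those tested, with 1148 and 746 at an unadjusted p under 0.05. Among the 8 genes the smallest adjusted p was 0.336, for Ang4 and the label, with a log2 difference of 4.13, higher in 2 of 2 pairs. DESeq2 gave Ang4 an adjusted p of 3.2e-10 for the label, edgeR without a filter on low counts 0.0154 and edgeR with library totals alone 0.0421. No other member had an adjusted p under 0.05 for either effect in edgeR or in these 3 alternatives. For Muc2 the label's log2 difference was -2.05, with an adjusted p of 1 in edgeR and 0.0677 in DESeq2.

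Other secreted and granule genes of goblet cells were read from a list of 16. Between the libraries labelled Card9-/-, 12 of 16 were at least 2-fold lower after AOM/DSS and 1 was higher, with a median log2 ratio of -2.20, against 0.03 for all genes. In WT, 1 of 14 was higher and 2 were lower. The untreated library labelled Card9-/- exceeded WT in 7 of 16, and after AOM/DSS 10 of 16 were lower with the label and 2 higher. Clca3, the goblet cell protein now named Clca1, which processes mucus, had 1120, 6741, 348 and 306 CPM. It was thus 3.22-fold lower after AOM/DSS in WT, where Zg16, Retnlb and Tff3 were higher. Klk1, a kallikrein, had 1136, 929, 674 and 30.2 CPM, and was lower in the last library alone by more than 2-fold. Best2, a chloride and bicarbonate channel of colon goblet cells, had 3.09, 39.4, 50.4 and 13.1 CPM, with an order of libraries like that of Retnlb in the first 3. Itln1, an intestinal lectin also found in Paneth cells, had 1.19, 6.21, 1.19 and 206 CPM and was the 1 listed gene at least 2-fold higher after AOM/DSS in the pair labelled Card9-/-.

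**Figure D4:**
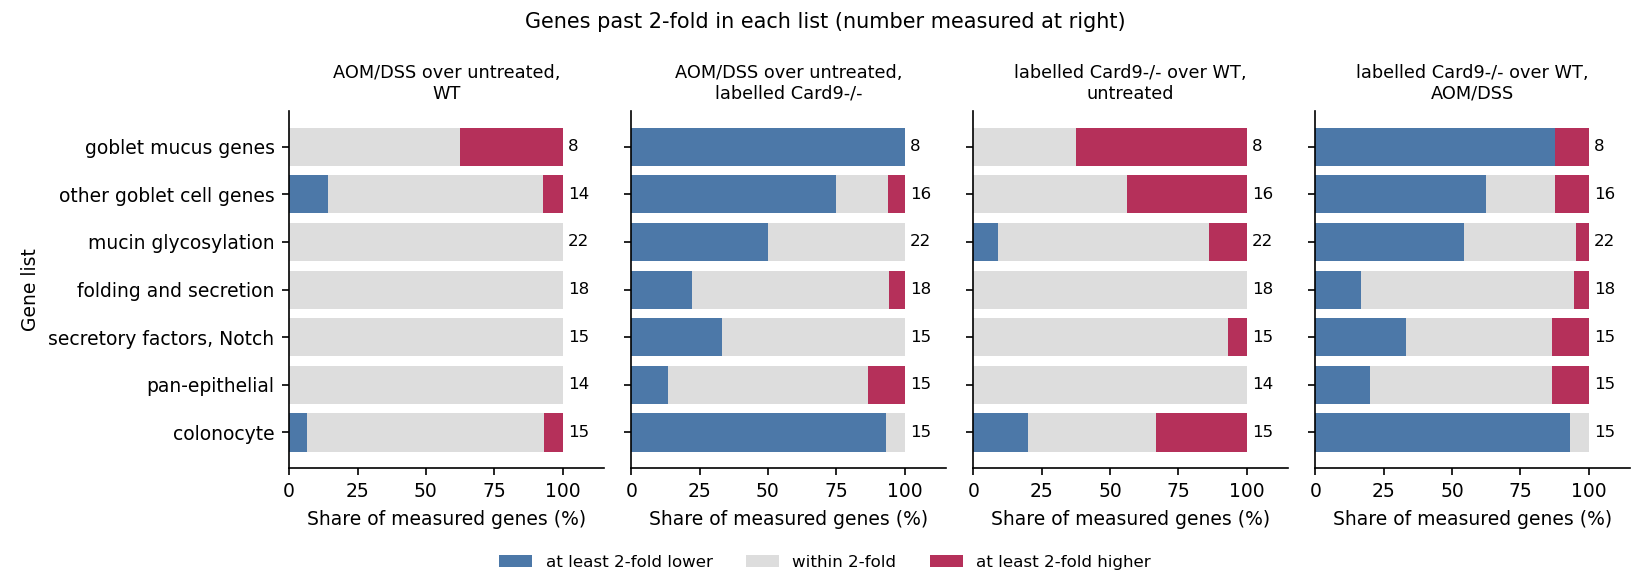
Share of measured genes at least 2-fold lower (blue), within 2-fold (grey) and at least 2-fold higher (red) for 7 gene lists in the 4 pairs of libraries, with the number measured at the right of each bar. In the pair labelled Card9-/- all 8 mucus genes, 12 of 16 other goblet cell genes and 14 of 15 colonocyte genes are lower, but 4 of 18 folding and secretion genes.

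Most genes that fold and export mucin stayed within 2-fold. Of 18 measured genes of folding and secretion, 0 passed 2-fold in the WT pair and 0 in the untreated pair. In the pair labelled Card9-/-, 4 were lower and 1 higher, with a median of -0.09. The 4 lower genes included Creb3l1, a secretory pathway factor, with 205, 205, 130 and 46.1 CPM, and Ern2, the stress sensor found in goblet cells, with 203, 169, 131 and 55.2 CPM. Sec61b, a subunit of the translocon found in all secretory cells, was the higher one, with 113, 69.1, 65.8 and 263 CPM. Xbp1 and Hspa5, which serve every secretory cell, were highest in the AOM/DSS library labelled Card9-/- with 292 and 566 CPM.

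Mucin glycosylation genes were lower in some of the same libraries as the mucins. In WT 0 of 22 passed 2-fold after AOM/DSS, and in the libraries labelled Card9-/- 11 of 22 were lower and 0 higher, with a median of -1.13. B3gnt6, which makes the core 3 glycan of colon mucin, had 1147, 929, 918 and 20 counts, and so was about level in 3 libraries and 67.7-fold lower (43.6 to 111) in the pair labelled Card9-/-. Gcnt3, a branching enzyme, had 465, 184, 394 and 37.6 CPM. Slc26a2, which imports sulfate, had 288, 699, 300 and 37.7 CPM. B3gnt7, with 12.7, 495, 24.9 and 67.7 CPM, was also lower after AOM/DSS in the pair labelled Card9-/-, with a log2 ratio of -2.85. It was higher with the label in both pairs as well, by 39.1-fold in the untreated pair (35.0 to 43.8).

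Of 15 measured transcription factors and Notch pathway genes of the secretory lineage, 0 passed 2-fold in the WT pair and 5 were lower in the pair labelled Card9-/-. Atoh1, the factor that commits cells to the secretory lineage, had 69.0, 72.4, 39.2 and 11.9 CPM, and was 6.07-fold lower in that pair (5.42 to 6.81). Klf4, which acts late in goblet cell differentiation, had 381, 581, 337 and 137 CPM. Cdx2, the intestinal identity factor, had 258, 143, 279 and 16.9 CPM. Foxa2 had 5.99, 32.1, 7.70 and 12.2 CPM and was higher with the label in both pairs, by 5.36-fold untreated and 1.58-fold after AOM/DSS. Sox9, a factor of crypt base and Paneth cells, had 43.2, 50.5, 29.9 and 85.9 CPM and was highest where the mucus genes were lowest.

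Type 2 cytokine and interleukin 22 transcripts were at or near 0. Il13 had 0 counts in 3 libraries and 1 in the AOM/DSS library labelled Card9-/-, and a count of 0 allows up to 3. Il4 had 1 or 2 counts in each library, and Il22 had 0, 0, 3 and 5. These levels were not detectable as differences at this depth, and Retnlb, a known target of type 2 cytokines, had log2 ratios from -5.67 to 4.67 across the same libraries. The alarmin Il33 had 198, 87, 454 and 712 counts and was 2.65-fold higher after AOM/DSS in WT and 5.61-fold higher in the libraries labelled Card9-/-. Chil3, which macrophages and neutrophils secrete, had 2, 1, 1001 and 3619 counts, and Arg1, an arginase, had 108, 20, 259 and 1384, so both were higher in each AOM/DSS library than in its untreated partner. The receptor chain Il4ra had 88.2, 61.0, 161 and 194 CPM and was highest in both AOM/DSS libraries. Il22ra2, a soluble inhibitor of interleukin 22, had 163, 277, 67 and 3 counts and was lowest in the AOM/DSS library labelled Card9-/-.

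Genes that mark position along the colon went with the Card9 label. Hoxb13, a factor of the most distal colon, had 1, 7163, 1 and 3438 counts, Hoxd13 had 0, 276, 1 and 2758, and Hoxa13 had 33, 719, 15 and 396. The anterior genes Hoxb6, with 1892, 212, 1059 and 45 counts, and Hoxb8, with 766, 65, 361 and 21, ran the opposite way. Of 8 position genes, 3 were higher and 3 lower with the label in the untreated pair, and 3 and 3 again after AOM/DSS. Position genes also differed with treatment in the pair labelled Card9-/-, where 2 of 8 were higher and 5 lower after AOM/DSS. In the WT pair 0 of 5 measured were past 2-fold. Tgm3, a transglutaminase in the goblet cell list, had 27, 38036, 41 and 795 counts and, like Ang4, was higher in both libraries labelled Card9-/- than in both WT libraries. Adipocyte genes summed to 504, 42.9, 228 and 19.9 CPM and were lower with the label in 8 of 8 measured untreated and 7 of 7 after AOM/DSS. The part of the sampled colon region in the values of Ang4 and the other members was not tested. With 1 library per group it cannot be told apart from genotype or, in the pair labelled Card9-/-, from treatment.

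Paneth cell genes bear on Ang4 because that cell type also makes it. With Ang4 left out, the 7 genes of the Paneth cell list, among them Itln1, summed to 51.5, 38.0, 583 and 2969 CPM. Of these sums, Reg3g alone made up 34.4, 3.77, 545 and 137 CPM. The defining defensins Defa17 and Defa24 were at 0 in both untreated libraries, where Ang4 differed 26.3-fold. After AOM/DSS they had 0 and 13 counts in WT and 2756 and 6029 in the library labelled Card9-/-, and Lyz1, the Paneth cell lysozyme, had 345, 537, 344 and 46297 counts. All 7 were at least 2-fold higher after AOM/DSS in the pair labelled Card9-/-, in which Ang4 was 2.06-fold lower. That log2 ratio of Ang4, -1.03, ran from -1.08 to -0.46 under the alternative settings. The part of Paneth cells in the Ang4 values was not tested.

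**Figure D5:**
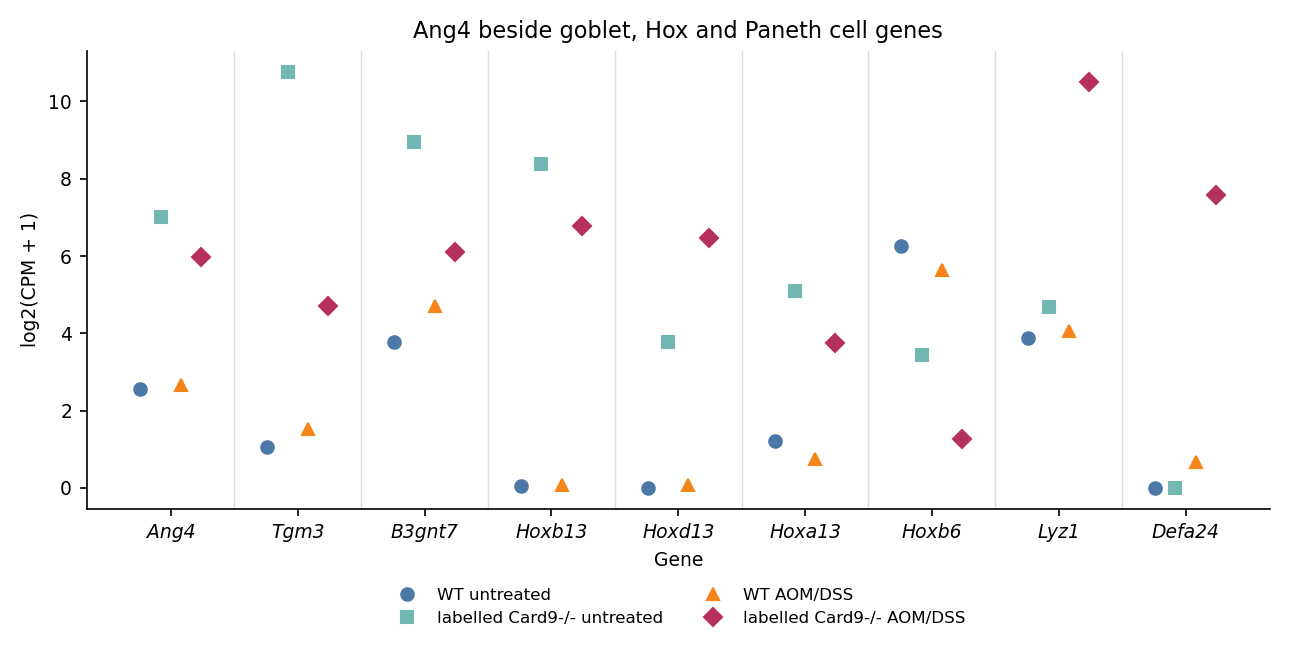
Level as log2(CPM + 1) of Ang4, of Tgm3 and B3gnt7, of 4 Hox genes and of the Paneth cell genes Lyz1 and Defa24 in the 4 libraries, with 1 point per library. Ang4, Tgm3, B3gnt7, Hoxb13, Hoxd13 and Hoxa13 are higher in both libraries labelled Card9-/- than in both WT libraries, Hoxb6 is lower in both, and the Paneth cell genes are high in the AOM/DSS library labelled Card9-/- alone.

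The 8 genes were compared by the shape of their profile, as the Euclidean distance between centred log2(CPM + 1) values over the 4 libraries, where 0 means the same shape. Agr2 and Spdef were the closest pair at 0.89, followed by Agr2 and Fcgbp at 1.06, and Ang4 lay 4.28 to 6.56 from every other member. Among 13534 other genes, the nearest to Muc2 were Kcnh3 (0.21), Ugdh (0.23) and Bche (0.24), and Ugdh had 740, 446, 501 and 61.2 CPM. The nearest to Spdef were Acads (0.10), Lgi4 (0.12) and Myo3a (0.13), and to Agr2 they were Gap43 (0.13), Creb3l1 (0.16) and Foxp2 (0.18). Fcgbp was nearest to Capn9 (0.27), Tstd1 (0.36) and Aoc1 (0.37), and the near profiles of Tff3 included Fcrla (0.28) and Plac9b (0.37). Zg16 had no such near neighbour: Hsd11b2 was closest at 0.81, and Tubal3 lay at 1.08. Retnlb stood further apart still, with Hsd11b2 at 1.90 and Rbp2 at 2.06 among its 3 nearest genes. Ang4 was nearest to Fxyd4 (0.12), with 0, 21.3, 0 and 9.09 CPM, then to Hoxa11os (0.54), with 7.58, 138, 6.60 and 54.1 CPM, and to Ctse (0.62). With 4 libraries, and so many candidates, near profiles are a description only.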

How the data were processed

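The authors deposited raw read counts, as whole numbers by gene symbol, in 1 table of 4 columns named by sample title. Per the labels' protocols, RNA was extracted with Trizol and libraries followed the Ion Proton RNA-Seq kit. The submitters' processing notes name GRCm38 (mm10) as the build. Which aligner, counter, annotation and strand setting were used is not given in the sources used here. The table held 44788 rows, of which 27 carried a date in place of a symbol, and 0 columns of other samples.

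Samples were grouped by labelled genotype and treatment. CPM were computed with TMM factors of 0.992, 0.931, 0.947 and 1.14 (edgeR 4.0.16, R 4.3.3). Log2 ratios are of CPM + 1, which understates differences of low genes, and folds are ratios of CPM with exact 95% Clopper-Pearson intervals conditional on the sum of both counts. No molecular identifiers are named in the labels, so reads may not be independent molecules, and these intervals cover counting error alone. With 1 library per group no pair was tested. The additive edgeR model treats the interaction as if it were spread between replicates, and its biological coefficient of variation was 0.444. Both kinds of calculation were run on simulated counts. For the ratios these held counting error alone. For the additive model they held less spread than was estimated here and no interaction, so they do not show how it behaves on these libraries.

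Levels per kilobase used exons of GENCODE M21 transcripts paired with RefSeq, in place of the RefSeq exons first planned, and all GENCODE transcripts for Muc2, which has no such pair. A row named Clca1 may hold a different gene under an older symbol and is counted in its list without a value. Members and lists were chosen with earlier results of these data known. Named genes were the 8 members, Card9, up to 6 genes per list with the largest ratio in any pair, and the 3 nearest profiles of each member among genes with at least 50 counts, without antigen receptor segments, mitochondrial genes, predicted genes or pseudogenes. Reg3g, Xbp1, Hspa5, the cytokines at or near 0 and the paralogs at 0 fall outside this rule and were named after their values were seen. Some genes that this rule names are not reported. Members were left out of every other list. Alternatives were DESeq2 (1.42.0) size factors and model, upper-quartile factors, library totals alone, scaling on 15 epithelial markers, pseudocounts of 0.5 and 5 CPM, a minimum of 200 counts, no minimum, thinning to the smallest total, leaving out genes above 1% of a library, and a 4-fold rule.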

Additional observations from a re-analysis of the deposited data

Results flagged for a closer look

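The AOM/DSS response had opposite signs under the 2 genotype labels for 4 of the 8 goblet cell genes, with counting intervals that exclude equal levels in both pairs. With 1 library per group the difference itself was not tested. As the log2 ratio in the libraries labelled Card9-/- minus that in WT, it was -8.28 for Retnlb, -6.50 for Zg16, -3.54 for Fcgbp and -3.07 for Tff3. Scaling on epithelial markers turned the WT ratio of Fcgbp from 0.17 to -0.15, so its signs were no longer opposite. All 4 differences rest on the AOM/DSS library labelled Card9-/-, which stands apart in composition.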

How the results depend on the processing

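No paired analysis was possible because each group has 1 library. Of 32 log2 ratios (8 genes in 4 pairs), each under 10 alternatives, 228 values stayed within the counting interval and 92 moved beyond it. The sign differed in 3 ratios, all within 2-fold: Fcgbp (-0.15) and Ang4 (-0.14) in WT under scaling on epithelial markers, and Agr2 in the untreated pair, in 4 alternatives, down to -0.18. The 8 differences of the responses kept their sign in all 10, which the settings of the count minimum could not change either. That of Ang4 ran from -1.18 to -0.32. Scaling on epithelial markers put 1 gene, Muc2 (-1.04), past 2-fold lower in the untreated pair, where 0 were. A 4-fold rule left 1 gene higher in WT (3 by the 2-fold rule), 5 lower in the pair labelled Card9-/- (8), 2 higher in the untreated pair (5), and 5 lower in the AOM/DSS pair (7). The additive model called 347 genes for treatment and 256 for the label with DESeq2, 81 and 62 without a filter on low counts, and 23 and 15 with library totals alone, against 0 and 0. The cause of these differences between tools was not tested.

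Scaling moved the median log2 ratio of all genes: to 0.30 in the pair labelled Card9-/- and 0.28 in the AOM/DSS pair with library totals alone, and to -0.27 (WT), 0.56 (labelled Card9-/-), -0.19 (untreated) and 0.66 (AOM/DSS) on epithelial markers. The share of higher among all called genes in the same order of pairs was 51.3, 47.0, 56.99 and 48.9%. It was 64.1% in the pair labelled Card9-/- and 64.2% in the AOM/DSS pair with library totals alone, and 26.8, 77.8, 37.9 and 83.3% on epithelial markers. Counts limit Ang4 most, with 122 and 116 in the WT libraries.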
